A study of Mus musculus with 6 samples.

Results

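The endothelin genes of the mouse retina were followed in 7 of the 55421 genes of a count table. They are the ligands Edn1, Edn2 and Edn3, the receptors Ednra and Ednrb, and the converting enzymes Ece1 and Ece2, matched by gene symbol. The family was chosen from the Yap cKO against control contrast of the same retinas, in which Edn2 had already been seen to be lower. The differences between the groups given for these 7 genes are therefore a description and carry no p-value.

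RNA sequencing was done on whole retinas of 2-month-old mice, 3 control and 3 Yap cKO. Control mice (Yap fl/fl, animals YR612, YR613 and YR615) carry the floxed Yap allele without a recombinase. Yap cKO mice (Yap fl/fl;RaxCreERT2, animals YR711, YR713 and YR714) carry in addition a tamoxifen-inducible Cre under control of Rax, which acts in Müller glia and in the non-pigmented epithelium of the ciliary body. Both groups, controls included, received 4-hydroxytamoxifen (4OH-T) at postnatal days 10 and 14. No group carried the Cre without the floxed allele. Within the retina, per the study, Müller glia are thus the cells that lose Yap, and the other retinal cells keep the floxed allele. The eye was cut below the ora serrata, which separates the anterior parts, and the lens was taken out before the retina was collected. Values of single retinas follow the order YR612, YR613, YR615 for control and YR711, YR713, YR714 for Yap cKO.

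Endothelins are small vasoconstrictor peptides. Each is cut by furin-like proteases from a long precursor to an inactive intermediate, the big endothelin, and then by an endothelin converting enzyme to the active peptide. The peptide binds the Ednra and Ednrb receptors, which signal through G proteins to phospholipase C and calcium. In the eye, endothelins set the tone of vessels. Damaged photoreceptors are known to make Edn2, and Müller glia and astrocytes carry Ednrb.

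The 3 ligands differ little in the part that reaches the receptor. The coding bases of the peptide of 21 residues are shown because they mark what the 3 ligands share and where they differ. They were read from the GENCODE M21 transcripts on GRCm38, where each lies in the second exon of its gene, and the peptide was found by the spacing of its cysteines. Capitals mark the codons whose amino acid is not the same in all 3 ligands.
Edn1, chr13:42303649-42303711, plus strand: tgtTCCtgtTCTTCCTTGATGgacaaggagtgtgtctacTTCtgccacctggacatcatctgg
Edn2, chr4:120161951-120162013, plus strand: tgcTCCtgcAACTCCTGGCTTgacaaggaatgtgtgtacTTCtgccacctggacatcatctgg
Edn3, chr2:174761749-174761811, plus strand: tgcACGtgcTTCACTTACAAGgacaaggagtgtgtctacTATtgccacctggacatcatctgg
In all, 15 of the 21 residues are the same in the 3 peptides. The peptide of Edn2 differs from that of Edn1 at 3 residues, and that of Edn3 differs from either at 6. The whole precursors are much less alike, with an identity of 31.6% between Edn1 and Edn2, 25.3% between Edn1 and Edn3 and 28.0% between Edn2 and Edn3. The identity was 53.6% between the receptors and 60.9% between the converting enzymes. Each identity is a share of all alignment columns, gaps included.

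Total counts per retina lay between 24261799 and 35067068. All 7 endothelin genes passed the filter on low counts, which kept 16575 genes. A gene is called here where it met 3 criteria, an adjusted p (Benjamini-Hochberg) up to 0.05 in the quasi-likelihood test of edgeR, at least 1.5-fold difference and at least 5 TPM on average in 1 of the groups. TPM is the share of a gene among all transcripts of a retina, corrected for gene length. Yap1, the deleted gene, had between 9.48 and 9.83 TPM in the controls and fell to between 3.76 and 3.99 TPM in the Yap cKO retinas. The defining genes of cones, as a check of the tissue, summed to 1748 to 2077 TPM. Log2 fold changes rose with gene length over the tested genes (Spearman's correlation 0.391 across genes, which are not independent replicates). The trend differed by retina. Expression relative to the mean of all retinas correlated with length at -0.413, 0.172 and -0.405 in the controls. In the Yap cKO retinas the values were 0.396, 0.385 and -0.151. Control YR613 and Yap cKO YR714 thus ran against the rest of their group. The difference of each endothelin gene is also given with a correction for length.

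Of the 7 endothelin genes, 1 was called, and it was lower in Yap cKO retinas. Over all tested genes, 0.796% were called, 0.585% lower and 0.211% higher. Edn2 was the called gene, and nothing is read from this count because the family was chosen from this contrast. The groups did not overlap for 3 of the 7 genes. For Ednra and Ece1 each Yap cKO retina exceeded each control retina, as for 12.3% of tested genes, and for Edn2 each was below, as for 12.4%.

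**Figure D1:**
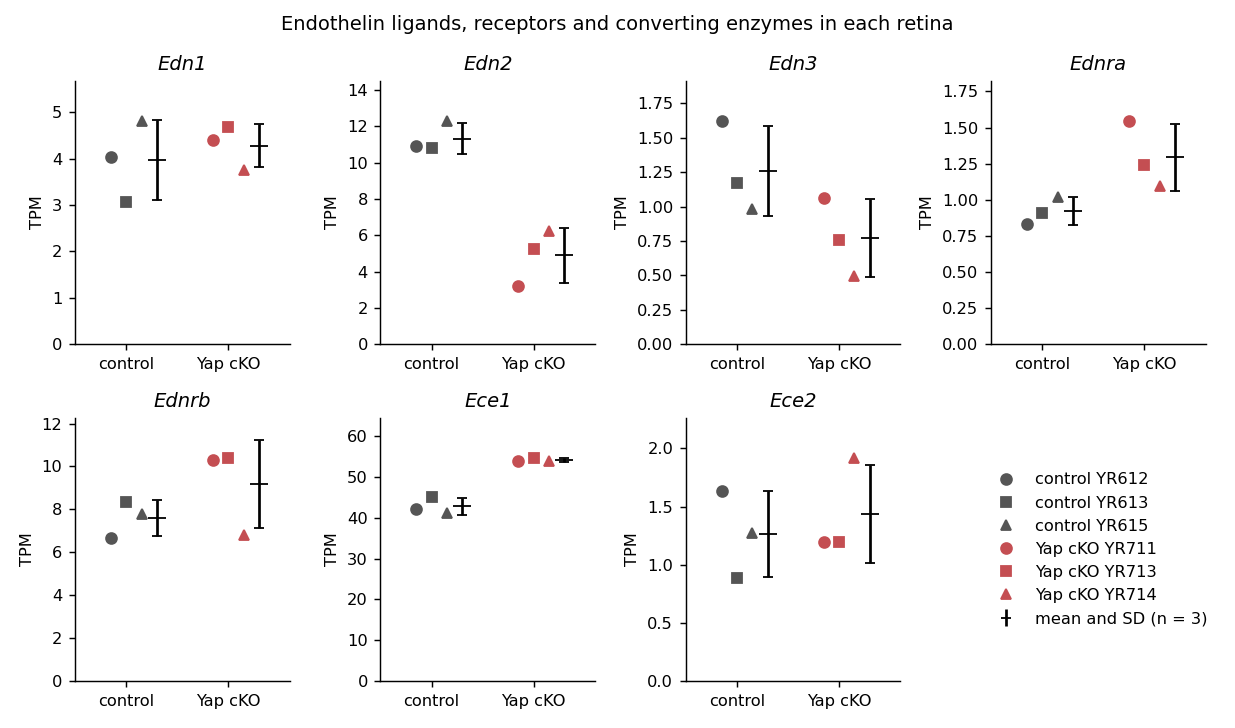
Level of each endothelin gene (TPM, linear axes that start at 0) in the 3 control retinas (grey) and the 3 Yap cKO retinas (red), with the mean and SD of each group in black. The groups are apart for Edn2, Ednra and Ece1 and overlap for the other genes.

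Among the ligands, Edn2 (ENSMUSG00000028635, chromosome 4 of GRCm38, 120161206 to 120167360, plus strand) was the most abundant in control retinas and the one that was called. The controls had 10.9, 10.8 and 12.3 TPM, from 105, 108 and 138 counts. The Yap cKO retinas had 3.21, 5.27 and 6.21 TPM, from 30, 67 and 62 counts. The highest Yap cKO retina thus stayed below the lowest control retina, and the Yap cKO retinas spread more widely. The control mean was 11.3 ± 0.839 TPM and the Yap cKO mean 4.90 ± 1.53 TPM (SD, n = 3 each), which is 43.2% of the control level. The fitted log2 fold change was -1.26 (standard error 0.22). In bulk tissue, fewer cells that express a gene and less RNA per cell cannot be told apart.

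Edn2 has a short transcript of 1462 exonic bases, shorter than most tested genes (percentile 11.2), and with the correction for length its log2 fold change was -1.13. Leaving out any 1 retina gave values from -1.46 to -1.04. Edn2 was no longer called on omitting control YR612 (-1.26), control YR615 (-1.20) or Yap cKO YR713 (-1.31). Over all tested genes, these omissions left 40, 38 and 68 genes called, against 132 with all retinas.

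Edn1 (ENSMUSG00000021367, chromosome 13, 42301476 to 42307990, plus strand), the main endothelin of vascular endothelium, overlapped between the groups. Controls had 4.04, 3.07 and 4.81 TPM, and Yap cKO retinas had 4.39, 4.67 and 3.76 TPM. The highest and the lowest of the 6 values were both from controls. The log2 fold change was 0.05 (standard error 0.20), and 0.16 with the correction for length.

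Edn3 (ENSMUSG00000027524, chromosome 2, 174760619 to 174784042, plus strand), the ligand known for its part in melanocyte and enteric neuron development, was the rarest ligand. The controls had 1.62, 1.17 and 0.981 TPM, from 44, 33 and 31 counts. Yap cKO retinas had 1.07, 0.754 and 0.498 TPM, from 28, 27 and 14 counts. Yap cKO YR711 lay above control YR615, so the groups overlapped. The log2 fold change of Edn3 was -0.76 (standard error 0.31), -0.74 with the correction for length, and the gene missed the criteria of adjusted p and TPM. Counting error alone is 26.7% for its lowest count and 15.1% for its highest.

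With less Edn2, the make-up of the ligand pool differed. Edn2 made up 65.8%, 71.8% and 68.0% of the summed TPM of the 3 ligands in the controls and 37.1%, 49.2% and 59.3% in the Yap cKO retinas. The share of Edn1 was between 20.4% and 26.6% in control retinas and between 35.9% and 50.7% in Yap cKO retinas. In Yap cKO YR711 there was more Edn1 than Edn2, at 4.39 against 3.21 TPM, which no other retina showed. The summed ligand level was 16.6, 15.02 and 18.1 TPM in controls against 8.67, 10.7 and 10.5 TPM after Yap deletion. These shares and sums restate the difference in Edn2 and add no test of it.

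**Figure D2:**
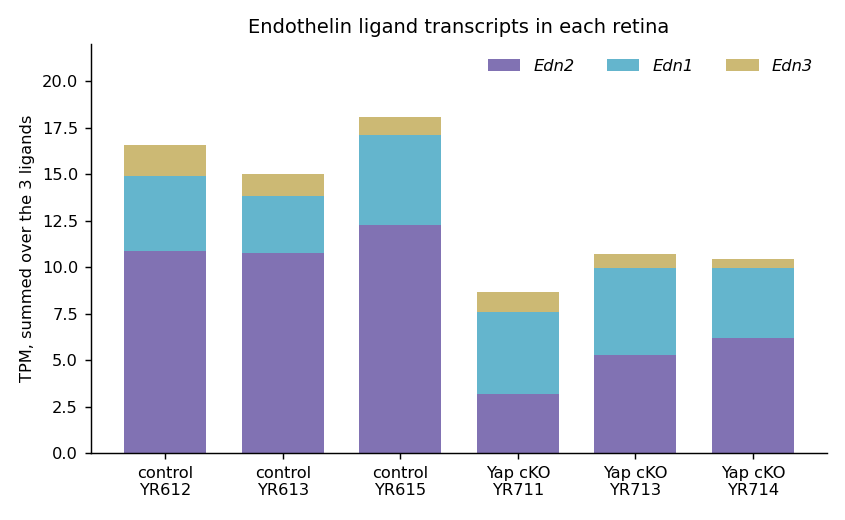
Stacked bars of Edn2, Edn1 and Edn3 (TPM) in each retina. The stack reaches 15.02 to 18.1 TPM in control retinas and 8.67 to 10.7 TPM in Yap cKO retinas, with the Edn2 part at 10.8 to 12.3 TPM against 3.21 to 6.21 TPM and the Edn3 part at 0.981 to 1.62 TPM against 0.498 to 1.07 TPM, while the Edn1 part is between 3.07 and 4.81 TPM in all 6 retinas.

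Among the receptors, Ednrb was the more abundant in every retina. Ednrb (ENSMUSG00000022122, chromosome 14, 103814625 to 103844402, minus strand), the receptor that binds the 3 peptides about equally, had 6.68, 8.35 and 7.78 TPM in the controls against 10.3, 10.4 and 6.83 TPM in the Yap cKO retinas. Yap cKO YR711 and YR713 lay above all controls and YR714 lay among them. The log2 fold change was 0.22 (standard error 0.16), 0.23 with the correction for length, and ran from 0.12 to 0.37 when 1 retina was omitted. A difference in Ednrb was not distinguishable from the spread of the retinas.

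Ednra (ENSMUSG00000031616, chromosome 8, 77663031 to 77724464, minus strand), the vasoconstrictor receptor of smooth muscle with little affinity for Edn3, was expressed at about 1 TPM. Control retinas had 0.830, 0.906 and 1.02 TPM, from 30, 34 and 43 counts. Yap cKO retinas had 1.54, 1.24 and 1.10 TPM, from 54, 59 and 41 counts. The groups did not overlap, but control YR615 and Yap cKO YR714 were close together. The log2 fold change of 0.42 (standard error 0.20), or 0.39 with the correction for length, met none of the 3 criteria. The ratio of Ednrb to Ednra was 8.04, 9.21 and 7.61 in control retinas and 6.68, 8.40 and 6.23 in Yap cKO retinas, and these ranges overlapped. The summed level of both receptors also overlapped, from 7.51 to 9.25 TPM in the controls and from 7.92 to 11.9 TPM in the Yap cKO retinas.

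Of the converting enzymes, Ece1 was by far the more abundant, and relative to its mean it had the narrowest spread of the family. Ece1 (ENSMUSG00000057530, chromosome 4, 137862237 to 137965229, plus strand) had 42.2, 45.0 and 41.2 TPM in the controls against 53.9, 54.7 and 54.0 TPM in the Yap cKO retinas. The lowest Yap cKO retina was well above the highest control retina. The group means were 42.8 ± 1.998 and 54.2 ± 0.440 TPM (SD, n = 3 each). The log2 fold change was 0.28 (standard error 0.071), 0.25 with the correction for length and from 0.25 to 0.30 when 1 retina was omitted. This is 1.22-fold and lies below the fold change minimum, and the adjusted p criterion was missed as well, so Ece1 was not called. With 1477 to 2524 counts per retina, its counting error was at most 2.6%.

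Ece2 (ENSMUSG00000022842, chromosome 16, 20629828 to 20646485, plus strand), a neural converting enzyme active at acidic pH, had 1.63, 0.885 and 1.27 TPM in the controls against 1.20, 1.19 and 1.92 TPM in the Yap cKO retinas. The groups overlapped and the log2 fold change was 0.12 (standard error 0.29), or 0.10 with the correction for length. Its level is understated, because 57.5% of its exonic bases also belong to the gene model Gm49333 on the same strand, and fragments in exons of more than 1 gene are not counted by default. Over the 2173 bases that are its own, its level was between 2.08 and 4.51 TPM. No other endothelin gene shares exons on its strand. The ratio of Ece1 to Ece2 ran from 25.9 to 50.9 in control and from 28.2 to 45.9 in Yap cKO retinas, before that adjustment.

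**Figure D3:**
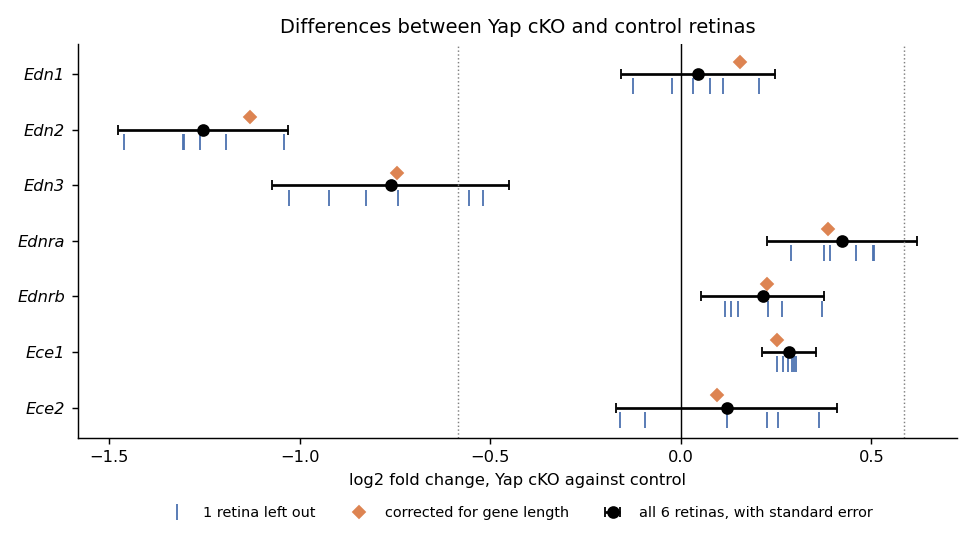
Log2 fold change of each endothelin gene, Yap cKO against control, from all 6 retinas (black, bars show the standard error), with a correction for gene length (orange) and with 1 retina left out (blue ticks). Dotted lines mark the minimum fold change of 1.5. Edn2 lies beyond the line in every fit, and the ticks of Edn1 and Ece2 fall on both sides of 0.

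By level per length, the order in control retinas was Ece1, Edn2, Ednrb, Edn1, Ece2, Edn3 and Ednra. Ece1, Edn2, Ednrb and Edn1 were each apart from the next gene in every retina of the group, whereas Ece2, Edn3 and Ednra overlapped. In Yap cKO retinas the order was Ece1, Ednrb, Edn2, Edn1, Ece2, Ednra and Edn3. Here Ednrb stood above Edn2, the ranges of Edn2 and Edn1 overlapped (3.21 to 6.21 and 3.76 to 4.67 TPM), those of Ece2 and Ednra overlapped too, and Edn3 was lowest. The place of Ece2 is uncertain in both groups for the reason given above.

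Edn2 was compared with the other 12215 tested genes of at least 5 TPM in a group for likeness of pattern over the 6 retinas. The genes closest to it by Pearson's r of log2 CPM were Dll1 (0.995), Bbs5 (0.992), Pcolce (0.990), Rgma (0.989) and Ccnd3 (0.988). In total 110 genes had an r above 0.95 with Edn2. The 6 points come from 2 groups, so that a gene that is likewise lower in Yap cKO retinas tends to score high, and the r values are a description. The size of the difference was unlike in these genes. Pcolce, a secreted enhancer of procollagen processing, had a log2 fold change of -1.59, whereas Bbs5, a component of the BBSome of cilia, had -0.18 and Rgma, a repulsive guidance molecule, had -0.26.

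TEAD factors, the partners of YAP on DNA, bind a motif whose core is GGAATG. It was searched on both strands, as GGAATG or CATTCC, in the promoters that RefSeq gives for the 7 genes on GRCm38.p6, from 250 bases before the start over 300.0 bases. It was found in the promoter of Edn1, and not in that of Edn2, Edn3, Ednra, Ednrb, Ece1 (4 promoters) or Ece2. Of all 32851 promoters in the table, 14.7% hold it. The match in Edn1 begins 207 bases before the start and is shown with its capitals on the motif.
Edn1, chr13:42301257-42301286, plus strand: cttcatacttttCATTCCaatggggtgact
A match is not a binding site, and no match in this window says nothing of sites elsewhere. The RefSeq start of Ednrb lies 701 bases from the end of the gene in the count table, so its window is that of another start.

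The wider pathway was described with gene lists, to be set beside the 0.796% of all tested genes that were called. The proteases that process or degrade endothelins were a list of 10 genes, of which 8 were tested and 0 called, with a median log2 fold change of -0.04 against 0.002 over all tested genes. Unadjusted p was at most 0.05 in 3 of the 8, beside 21.4% of all tested genes. The lowest value was that of Pcsk5, a furin-like convertase, at -0.81 with an adjusted p of 0.0421 (edgeR's quasi-likelihood test, Benjamini-Hochberg), which was not called because it had at most 2.06 TPM. Furin itself had 18.0 ± 0.689 TPM in the controls and 19.7 ± 1.68 TPM in the Yap cKO retinas (SD, n = 3 each). Pcsk5 and Furin were named after their values were seen.

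Downstream of the receptors, 33 of 34 genes for G proteins, phospholipases, kinases, arrestins and regulators were tested, and 1 was called, lower. Their median log2 fold change was 0.07, and 11 of the 33 had an unadjusted p of at most 0.05, beside 21.4% of all tested genes. The called gene was Myl9, the myosin regulatory light chain of smooth muscle contraction. The controls had 34.04, 30.01 and 34.26 TPM and the Yap cKO retinas 20.5, 15.6 and 12.1 TPM. The log2 fold change of Myl9 was -1.09 (adjusted p = 0.0228, edgeR's quasi-likelihood test, Benjamini-Hochberg). As for Edn2, omitting control YR612, control YR615 or Yap cKO YR713 ended the call. Most calls over all genes were lost in these fits too.

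Genes of the photoreceptor stress response, the setting in which Edn2 is known to be induced, gave 13 tested genes and 1 called, lower, with a median log2 fold change of -0.33. Unadjusted p was at most 0.05 in 6 of the 13, beside 21.4% of all tested genes. The called gene was Serpina3n, a protease inhibitor of reactive glia, which fell from 26.4 ± 7.42 TPM in the controls to 10.6 ± 3.46 TPM (SD, n = 3 each). Its log2 fold change was -1.37 (adjusted p = 0.0412 by the same edgeR test), and omitting YR612, YR615 or YR711 ended the call. Lif, the cytokine at the head of this response, was named after its values were seen and was not called. It had 0.449 to 0.906 TPM in the controls and 0.324 to 0.437 TPM in the Yap cKO retinas, from 9 to 27 counts. In the list as a whole, 8 log2 fold changes were below 0 and 5 above. A further list held transcription factors that may act on endothelin genes, with Yap1 and the TEAD factors among them. Of these, 14 were tested and 1, the deleted Yap1 itself, was called, with an unadjusted p of at most 0.05 in 3 of them.

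**Figure D4:**
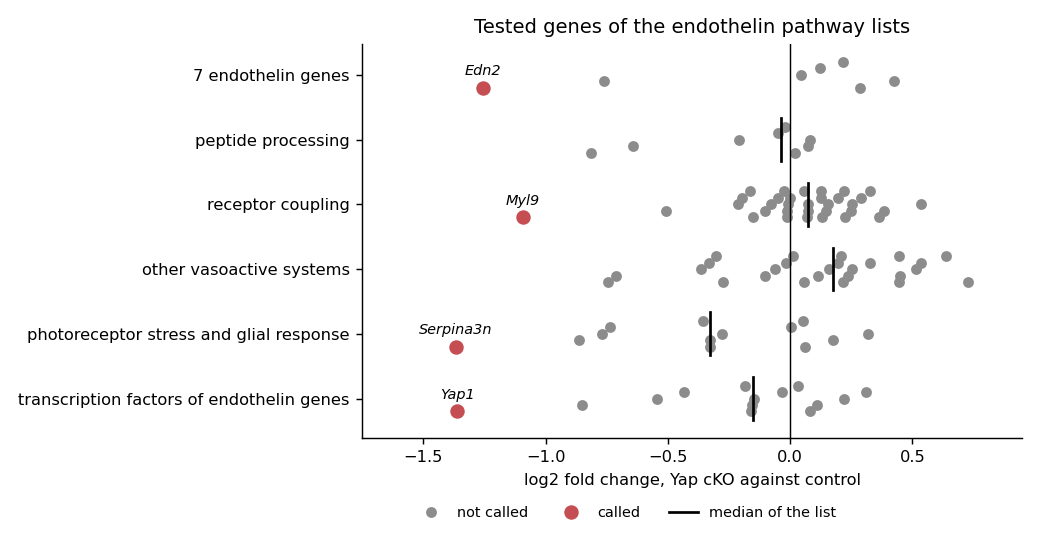
Log2 fold change, Yap cKO against control, of the tested endothelin genes and of the tested genes of 5 pathway lists, one point per gene, with called genes in red and named and the median of each pathway list as a bar. The called genes, Edn2, Myl9, Serpina3n and Yap1, are all lower. Yap1 is the deleted gene, and Edn2 was known beforehand to be lower. Over all tested genes, 0.585% were called lower and 0.211% higher.

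Marker levels of the cells that could carry these genes moved unequally. Müller glia markers were tested in 10 of 10 genes, 0 were called, and their median log2 fold change was -0.18. Endothelial markers (0 of 10 called, median -0.02), pericyte and smooth muscle markers (0 of 10, median -0.12) and astrocyte markers (0 of 3, median 0.12) were not called either. The unadjusted p was at most 0.05 for 5 Müller glia genes, 2 endothelial genes and 2 pericyte and smooth muscle genes, and for 0 astrocyte genes, beside 21.4% of all tested genes.

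Most tested markers of pigmented cells and of the ciliary body were lower in Yap cKO retinas, but most were not called. The 9 melanin genes summed to 82.3 to 88.1 TPM in control retinas and to 23.8, 57.1 and 37.2 TPM in the Yap cKO retinas, and 1 of them was called. This was Pmel, a melanosome matrix protein, with a log2 fold change of -1.90 (adjusted p = 0.0347, edgeR's quasi-likelihood test, Benjamini-Hochberg), whose call ended on omitting YR612, YR615 or YR711. The 5 pigment epithelium genes summed to 563.9 to 611.3 TPM in control retinas and to 175.3, 323.9 and 595.4 TPM in the Yap cKO retinas, with 0 called. Of 6 tested ciliary epithelium genes 1 was called, Optc, an extracellular matrix proteoglycan of the ciliary body, at 45.6 to 50.2 TPM in the controls and 2.86, 8.39 and 2.44 TPM in the Yap cKO retinas. The median log2 fold change of the 6 ciliary genes was -0.87, with 5 values below 0, and all 6 had an unadjusted p of at most 0.05. The values were -1.80 for Otx1, -1.18 for Bmp4, -0.56 for Zic2, -0.46 for Zic1 and 0.29 for Aqp1, which were named after they were seen. The summed level of the ciliary list, most of it Aqp1, was 290.6 to 307.1 TPM in the controls and 275.2 to 337.7 TPM in the Yap cKO retinas. The median was -0.85 for the melanin genes, with 5 of 9 at an unadjusted p of at most 0.05, and -0.70 for the pigment epithelium genes, with 1 of 5. Over all tested genes, 21.4% had such a p and 0.796% were called. No marker of these 3 lists was at 0 counts in all retinas.

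Lens and fibroblast markers were lower in sum, but in both the lowest control and the highest Yap cKO retina were close. The 2 tested lens genes had 9 to 28 counts per retina. Crygs (lens) and Dcn (fibroblasts), not tested and named after their values were seen, were each highest in 1 control. Crygs had 3.27 TPM in YR615 and Dcn 1.48 TPM in YR612. The 5 lens genes summed to 2.62 to 6.18 TPM in the controls and to 1.63 to 2.53 TPM in the Yap cKO retinas, with log2 fold changes of -0.91 and -0.92 for the 2 tested genes and 0 called. The 6 fibroblast genes summed to 10.82 to 13.1 TPM against 7.80 to 10.76 TPM, with 0 of 4 tested genes called. Col1a2 among them, named after its values were seen, missed the TPM minimum. Its log2 fold change was -2.16 with an adjusted p of 0.00236 (edgeR's quasi-likelihood test, Benjamini-Hochberg). The other tested fibroblast genes, also named after their values were seen, were at 0.08 (Col1a1), -0.004 (Col3a1) and -0.05 (Pdgfra).

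The order of the Yap cKO retinas was the same as that of Edn2 in some of these measures and not in others. Edn2 was lowest in YR711 and highest in YR714. The pigment epithelium sum followed that order, with 175.3 TPM in YR711, 323.9 in YR713 and 595.4 in YR714. In YR714 this sum was at the control level while Edn2 was not. The melanin sum was lowest in YR711 and highest in YR713. Edn3, whose receptor Ednrb is carried by melanocytes, was lowest in YR714. The part of pigmented, ciliary, lens or connective tissue cells in the level of Edn2 or Edn3 was not tested.

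**Figure D5:**
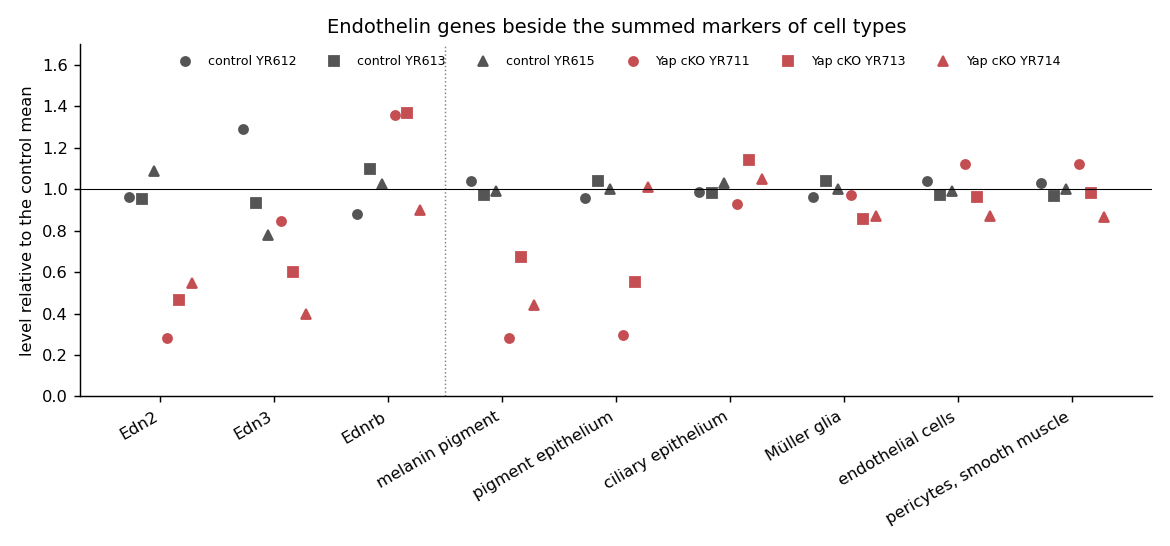
Level of Edn2, Edn3 and Ednrb and the summed level of marker genes of 6 cell types in each retina, each divided by its control mean (linear axis from 0). Yap cKO retinas (red) are low for Edn2 and for melanin markers in all 3 animals, and low for pigment epithelium markers in YR711 and YR713 but not in YR714.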

How the data were processed

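RNA-seq was performed by the authors on 6 samples of retina. Stranded paired-end reads were aligned to GRCm38, with STAR 2.7.3a per the submitters' processing notes, and fragments were counted on exons with featureCounts 1.6.2, strand setting 2, and annotation release 98 per the file header. The deposited values are counts per gene without normalization, 1 column per sample. TPM was computed here from counts and exonic lengths. Symbols came from GENCODE M21, which named 55154 genes.

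Low counts were removed with filterByExpr, and the remaining 16575 genes, scaled by TMM, were put through the quasi-likelihood test of edgeR (version 4.0.16, R 4.3.3) with Benjamini-Hochberg adjusted p-values, with the criteria of the study's methods (adjusted p at most 0.05, fold change at least 1.5, at least 5 TPM in a group). DESeq2 1.42.0 and limma 3.58.1 served for alternatives. The steps were tested on simulated data. The labels and methods name no batch, and the labels give neither the sex nor the litter of the animals, nor whether 1 or both retinas of an animal entered a sample. Length correction used a loess curve of span 0.3 per retina.

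The 7 genes and all lists were chosen with earlier results of these data known. Genes named are the 7 genes, called genes of the pathway lists, up to 4 called genes per marker list, the 5 genes most like Edn2 (log2 CPM, prior count 2) and Yap1, and any other is said to be named after its values were seen. One marker list is not reported here. Marker lists not described in the text had 0 called genes: cones (5 tested), ganglion cells (7) and microglia (6). Alternatives were other size factors, tests, filters and minimums, length-corrected offsets and leaving out each retina.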

Additional observations from a re-analysis of the deposited data

How the results depend on the processing

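Of the endothelin genes, Edn2 kept its direction under all 10 alternatives of scaling, test, filter or minimum (log2 fold change -1.30 to -1.13). It was called in each. Dropping the TPM or the fold change minimum reuses the main fit, where Edn2 met all 3 criteria, so it could not lose its call there. With 1 retina left out, Edn2 lay between -1.46 and -1.04 and was called in 3 of 6 fits, so 0 or 1 endothelin genes were called. The other 6 genes were called in none of these fits. Edn1 (-0.13 to 0.21) and Ece2 (-0.16 to 0.36) changed sign with the retina left out. Edn1 was -0.13 without control YR613 and -0.02 without Yap cKO YR713, and Ece2 was -0.09 and -0.16 on omitting control YR613 or Yap cKO YR714. Edn3 (-1.03 to -0.52), Ednra (0.29 to 0.51), Ednrb (0.12 to 0.37) and Ece1 (0.25 to 0.30) kept their direction. Pathway genes called, the deleted Yap1 among them in each fit, were 3 in the main fit. They were 4 with DESeq2, either likelihood ratio test or no TPM minimum. Without the filter on low counts they were 6, and with 1 retina left out 1 to 7. Over all genes, 132 were called, 263 by DESeq2, 291 by edgeR's likelihood ratio test, 245 with that test and length-corrected offsets, 369 without the filter, and 38 (without control YR615) to 516 (without control YR613) with 1 retina left out. The cause was not tested. Counts of 14 to 138 per retina limit the precision for Edn1, Edn2, Edn3, Ednra and Ece2. No paired analysis was possible because the labels give each sample its own code, the groups share none, and litters are not named.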

Other observations

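Other systems that set vessel tone were described by a list of 33 genes, of which 26 were tested. None was called by edgeR's quasi-likelihood test with the criteria above, and 8 of the 26 had an unadjusted p of at most 0.05, beside 21.4% of all tested genes. Their median log2 fold change was 0.18, with 17 values above 0 and 9 below. The values that lay farthest from 0 were 0.73 and -0.74. Agt, the precursor of angiotensin, had 26.2, 20.9 and 24.0 TPM in the controls against 28.6, 35.1 and 37.4 TPM in the Yap cKO retinas. Calcrl, the receptor of adrenomedullin, had 4.13, 5.95 and 5.14 TPM against 9.91, 8.97 and 5.79 TPM, and Adm, its ligand, had 1.87, 2.07 and 1.93 against 1.35, 1.21 and 1.08 TPM. Nos1, the neuronal nitric oxide synthase, had 4.72, 7.08 and 4.68 TPM against 7.88, 7.58 and 8.91 TPM. The endothelial nitric oxide synthase Nos3 had 8.26 to 11.4 TPM against 8.56 to 10.2 TPM. These 5 genes were chosen after their values were seen and did not pass the threshold of adjusted p.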
